A study of Rattus norvegicus with 6 samples.

Results

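Crebrf, a nuclear regulator of the transcription factor CREB3, was 4.24-fold higher in INS-1E cells kept with uric acid than in untreated cells. The other 7 genes described here differed by less than 0.5 on the log2 scale. The 8 genes are Crebrf itself, the membrane-bound factors Creb3, Creb3l1, Creb3l2, Atf6 and Atf6b, and Mbtps1 and Mbtps2, which encode the proteases that free those factors. They are 8 of the 19289 features in the deposited table, found by their gene symbols, and each symbol had 1 row. The set was chosen by pathway, with the difference between uric acid and untreated cells already known, so that difference is given below as a description, with no p-value for these genes and nothing read from how many passed a threshold. Messenger RNA was sequenced from INS-1E, an established rat insulinoma line described in the labels as derived from insulin-secreting beta cells. There were 3 libraries of cells given uric acid for 24 hours and 3 libraries of cells labelled untreated, and the labels used here give no uric acid concentration, vehicle, genotype change or statement that replicates were separate cultures. All p-values below therefore measure only the spread between these 6 libraries.

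CREB3 family members and both ATF6 proteins are made as precursors held in the membrane of the endoplasmic reticulum. On release they travel to the Golgi, where the site-1 protease (Mbtps1) and then the site-2 protease (Mbtps2) cut them, and the freed cytosolic part enters the nucleus and binds DNA through its basic leucine zipper. ATF6 is known as one of the arms of the unfolded protein response, which matters in beta cells because of their heavy load of proinsulin folding. CREBRF, also called Luman recruitment factor, binds the active form of CREB3 (Luman) and lowers its activity and stability, and it also restrains glucocorticoid receptor signalling. In Drosophila its counterpart REPTOR is a transcription factor held back by the growth kinase complex TORC1.

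The table's own annotation separates the regulator from the factors only in part. An annotation term for the unfolded protein response or stress of the endoplasmic reticulum was attached to 7 of the 8 genes, all but Mbtps1. A nuclear term was attached to 6, and Crebrf was the 1 of these 6 without a term for the endoplasmic reticulum. A term for an integral component of membrane was attached to 5, and was missing for Creb3 and Atf6b as well as Crebrf. Peptidase activity was attached to Mbtps1 and Mbtps2. The genes lie on 8 different chromosomes, at positions from the deposited table, for which no genome build was named in the sources used here. Crebrf (ENSRNOG00000020769) is on the minus strand of chromosome 10 from 16694792 to 16752205, with 1 transcript and no overlapping feature in the table. Creb3 (ENSRNOG00000016452) is on the plus strand of chromosome 5 from 59063531 to 59068188, and Gba2 and Tln1 overlap it on the other strand. Because no source used here states the strand used in counting, it is unknown whether reads of Creb3 and of these neighbours were told apart where they overlap. Atf6b is also overlapped on the other strand, by the provisional gene LOC103689965.

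The promoter windows of Crebrf and Creb3 are shown because they are the regulator and the factor it acts on, and because the Crebrf window is the only one of the 7 available that holds an E-box. Each window covers 250 bases before and 50 bases from the annotated start on, in RefSeq's GRCr8 build of the rat genome, written 5′ to 3′ on the gene's strand. The Crebrf window is chr10:16966381-16966680 on the minus strand, and the Creb3 window is chr5:62613402-62613701 on the plus strand. Capitals mark the E-box CACGTG, with its flanking bases where they complete the longer form TCACGTGA.
Crebrf: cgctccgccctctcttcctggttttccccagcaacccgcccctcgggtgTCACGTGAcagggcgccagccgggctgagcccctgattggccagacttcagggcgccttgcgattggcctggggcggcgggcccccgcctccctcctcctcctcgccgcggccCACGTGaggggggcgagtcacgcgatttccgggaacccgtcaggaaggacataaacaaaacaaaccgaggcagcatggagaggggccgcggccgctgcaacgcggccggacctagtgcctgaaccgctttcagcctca
Creb3: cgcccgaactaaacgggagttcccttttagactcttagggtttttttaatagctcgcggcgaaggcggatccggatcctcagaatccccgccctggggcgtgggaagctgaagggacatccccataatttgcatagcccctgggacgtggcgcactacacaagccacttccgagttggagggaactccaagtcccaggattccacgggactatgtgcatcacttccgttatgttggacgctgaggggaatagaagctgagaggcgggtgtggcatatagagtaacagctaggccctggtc

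The Crebrf window held 2 E-boxes, the first base of 1 at position -200 and of the other at -88 from the start. The more distant E-box lies within TCACGTGA, a form that MiT/TFE factors such as TFE3 and TFEB are known to bind, beginning at -201. Of 33469 rat promoter windows of 300 bases, 6.42% held an E-box and 0.777% held TCACGTGA, on either strand. Also searched on both strands were the cAMP response element TGACGTCA (1.83% of windows), the ATF6 site core TGACGTGG (0.595%), the ER stress response element (CCAAT and CCACG 9 bases apart, 0.0657%) and the core TGATGCAA bound by ATF4 with C/EBP partners (0.795%). None of these letters occurred in the windows of Crebrf, Creb3, Creb3l1, Creb3l2, Atf6b, Mbtps1 or Mbtps2. The CCAAT box, found in 37.5% of windows, occurred in those of Crebrf (2), Creb3l2 (2) and Atf6b (1). GC content was 68.7% in the Crebrf window and 55.7% in the Creb3 window, against a median of 51.7% over all windows.

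Summed estimated counts were 41191819 to 48875962 in the uric acid libraries and 47858248 to 59092982 in the untreated libraries. On the first principal component, which held 46.4% of the variance, the uric acid libraries lay at 3.32 to 33.2, with library 2 farthest out, and the untreated libraries at -23 to -11.1. The beta-cell identity in the labels was matched by the 8 beta-cell markers checked, all above 1 FPKM. They summed to 67000 to 79500 FPKM in uric acid libraries and 68200 to 82300 FPKM in untreated libraries, mostly Ins1 and Ins2. Mafa was lower with uric acid (254 to 313 FPKM, against 370 to 400 FPKM), as were Pdx1 and Nkx6-1. Slc2a2 (336 to 369 FPKM, against 281 to 325 FPKM) and Neurod1 were higher. The groups of these did not overlap, as for 31.0% of all tested features, and those of Ins1, Ins2 and Iapp did. Marker sums of fibroblasts (3 of 3 markers listed), leukocytes (2 of 3) and endothelium (1 of 2) stayed at or below 1.19, 0.564 and 0 FPKM in uric acid libraries and 1.62, 0.585 and 0.0138 FPKM in untreated libraries. Acinar and duct markers (3 of 5 listed) summed to 0.859 to 1.01 FPKM in uric acid libraries and 1.73 to 2.01 FPKM in untreated libraries, nearly all of it Sox9, while Prss1 and Krt19 were listed at 0 in every untreated library. The sum for other islet hormones (3 of 4 listed) was 8.06 to 11 FPKM in uric acid libraries and 6 to 10.5 FPKM in untreated libraries, nearly all of it Gcg, and no part of any of these in the results below was tested.

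Crebrf had 7.19, 7.39 and 7.4 FPKM (fragments per kilobase of transcript, scaled to library size) in the uric acid libraries, against 1.69, 1.79 and 1.7 FPKM in the untreated libraries. All 3 uric acid libraries lay far above all 3 untreated libraries, and replicates within each group were close. The means were 7.33 ± 0.118 FPKM with uric acid and 1.73 ± 0.0561 FPKM without (SD, n = 3 each). The coefficient of variation was 1.61% in uric acid libraries and 3.24% in untreated libraries, where the median over all 12460 tested features was 9.57% and 7.6%. These levels rest on 2425 to 2776 estimated counts per uric acid library and 654 to 798 per untreated library. The log2 fold change from edgeR was 2.08 ± 0.08 (SE), the 15th highest of 12460. An absolute log2 fold change of at least 2 was found for 0.161% of features. In bulk RNA, fewer cells of a type and less RNA per cell cannot be told apart. In level, Crebrf stood at the 39th percentile of tested features in uric acid cells and at the 7.58th percentile in untreated cells.

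**Figure D1:**
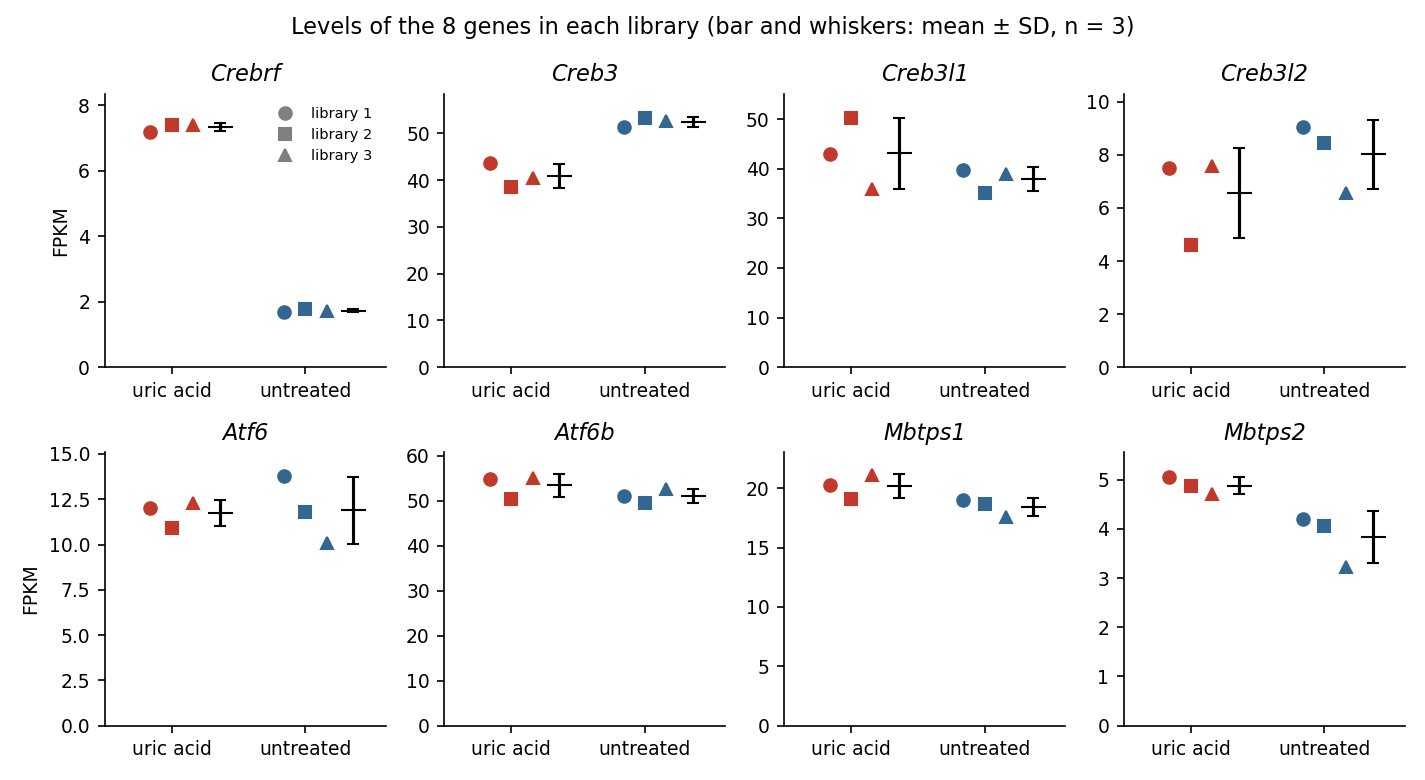
FPKM of the 8 genes in each library, with uric acid in red and untreated in blue, marker shape giving the library number, and the black bar and whiskers giving mean ± SD (n = 3). Crebrf sits between 7.19 and 7.4 FPKM with uric acid and between 1.69 and 1.79 FPKM without, while the groups overlap for Creb3l1, Creb3l2, Atf6 and Atf6b.

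Creb3, the factor that CREBRF acts on, went the other way. It had 43.6, 38.6 and 40.5 FPKM in the uric acid libraries and 51.3, 53.3 and 52.7 FPKM in the untreated libraries. The groups did not overlap, and every uric acid library was lower. The means were 40.9 ± 2.52 FPKM with uric acid and 52.5 ± 1 FPKM without (SD, n = 3 each), a log2 fold change of -0.36 ± 0.07 (SE), or 22.1% lower. Taken within each library, Crebrf messages per length amounted to 0.165, 0.192 and 0.183 of those of Creb3 in uric acid cells, against 0.0329, 0.0336 and 0.0323 in untreated cells. Crebrf thus remained the less abundant of the pair in all 6 libraries.

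Creb3l1, known as OASIS and linked to collagen secretion and bone, had 42.9, 50.3 and 36 FPKM in the uric acid libraries, against 39.7, 35.1 and 38.9 FPKM in the untreated libraries. The groups overlapped: uric acid library 2 was the highest and uric acid library 3 lay among the untreated values. The log2 fold change was 0.18 ± 0.12 (SE), and 0.05 without uric acid library 2. Creb3l2, also called BBF2H7 and known to drive the coat gene Sec23a in mouse cartilage, had 7.5, 4.61 and 7.58 FPKM in the uric acid libraries, against 9.05, 8.44 and 6.57 FPKM in the untreated libraries. Here uric acid library 2 was the lowest of all, and untreated library 3 lay below the other 2 uric acid libraries. Its log2 fold change of -0.29 ± 0.19 (SE) was -0.09 without uric acid library 2. The liver and testis members of the family, Creb3l3 and Creb3l4, were below the test limit of 1 FPKM: Creb3l3 was listed at 0 in 5 of 6 libraries and at 0.0793 FPKM in uric acid library 2, and Creb3l4 had 0.0857 to 0.395 FPKM in uric acid libraries and 0.0781 to 0.176 FPKM in untreated libraries.

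Atf6, the activator of the chaperone genes, had 12, 10.9 and 12.3 FPKM in the uric acid libraries, against 13.8, 11.8 and 10.1 FPKM in the untreated libraries. The uric acid values fell inside the untreated range. The log2 fold change of -0.02 ± 0.11 (SE) was 0.09 without untreated library 1 and -0.12 without untreated library 3. Atf6b, a close relative known as the weaker activator, had 54.8, 50.4 and 55 FPKM in the uric acid libraries and 51, 49.6 and 52.6 FPKM in the untreated libraries, overlapping groups with a log2 fold change of 0.06 ± 0.06 (SE). Per length, Atf6b messages were 4.48 to 4.63 times those of Atf6 in uric acid libraries and 3.7 to 5.22 times in untreated libraries.

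For both processing proteases, every uric acid library lay above every untreated library. Mbtps1, the site-1 protease, had 20.3, 19.1 and 21.1 FPKM in the uric acid libraries and 19, 18.7 and 17.6 FPKM in the untreated libraries. The lowest uric acid value was barely above the highest untreated one, and the log2 fold change was 0.13 ± 0.07 (SE). Mbtps2, the site-2 protease, had 5.06, 4.87 and 4.71 FPKM in the uric acid libraries, against 4.21, 4.05 and 3.23 FPKM in the untreated libraries. Untreated library 3 was the lowest, and the log2 fold change of 0.35 ± 0.11 (SE) was 0.25 without it. Mbtps1 messages per length were 3.91 to 4.47 times those of Mbtps2 in uric acid libraries and 4.52 to 5.46 times in untreated libraries.

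**Figure D2:**
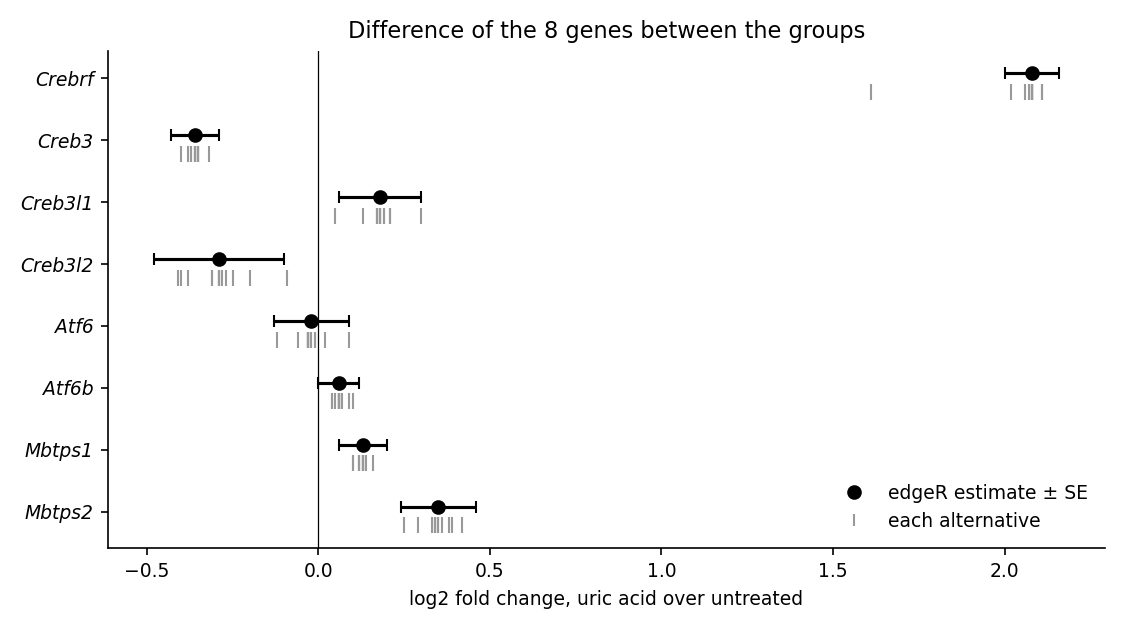
Log2 fold change of uric acid over untreated for the 8 genes, as black points with SE from edgeR and as grey ticks for each alternative way of processing. Crebrf stands at 2.08, with the tick at 1.61 coming from limma on log2(FPKM + 1), and the other 7 genes lie between -0.36 and 0.35.

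All 8 genes passed the limit of a mean of 1 FPKM. At an adjusted p under 0.05 (edgeR quasi-likelihood test, Benjamini-Hochberg over all features), 2 of the 8 passed, Crebrf higher and Creb3 lower, where 7.98% of all tested features passed, 4.99% higher and 2.99% lower. The groups did not overlap for 4 of the 8, as for 31.0% of all tested features. Since this contrast was known when the genes were chosen, nothing is read from either count. The count was 1 without untreated library 2 or 3, Creb3 being the one lost. With DESeq2 it was 3, Mbtps2 being added.

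In untreated cells the order of the levels per length was Creb3 (52.5 FPKM), Atf6b (51.1), Creb3l1 (37.9), Mbtps1 (18.4), Atf6 (11.9), Creb3l2 (8.02), Mbtps2 (3.83) and Crebrf (1.73). The ranges of Creb3 and Atf6b overlapped, and each other neighbouring pair in this order was separated. With uric acid, Atf6b (53.4 FPKM) was first, followed by Creb3l1 (43) and Creb3 (40.9), whose ranges overlapped. Crebrf was sixth at 7.33 FPKM, its range overlapping that of Creb3l2 (6.57 FPKM), which in turn overlapped that of Mbtps2 (4.88 FPKM). The summed level of the 5 membrane-bound factors differed little, at 156 ± 4.73 FPKM with uric acid and 161 ± 3.41 FPKM without (SD, n = 3 each). Creb3 made up 24.9 to 27.1% of that sum in uric acid libraries and 31.1 to 33.7% in untreated libraries, without overlap. The share of Creb3l1 was 23.8 to 32.5% in uric acid libraries and 22.2 to 24.2% in untreated libraries, and that of Atf6b was 32.6 to 36.3% in uric acid libraries and 30.9 to 32.7% in untreated libraries.

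**Figure D3:**
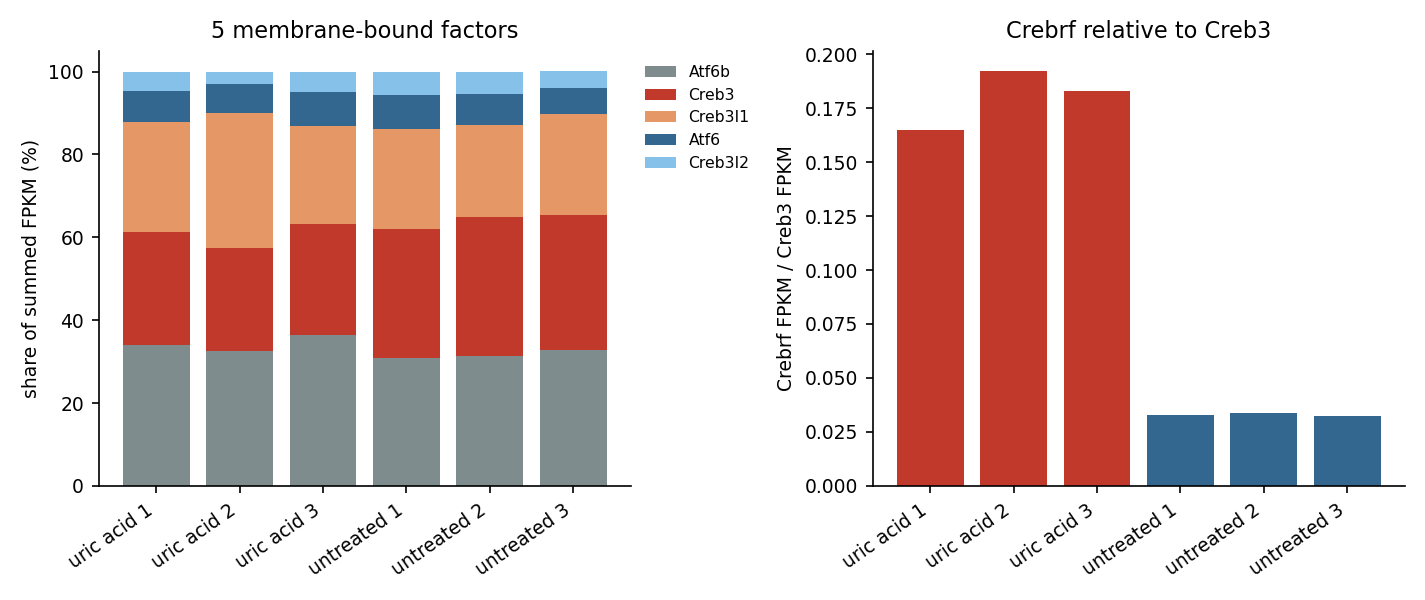
Left, stacked bars of the share of each of the 5 membrane-bound factors in their summed FPKM (percent) per library, coloured by gene, and right, bars of the ratio of Crebrf to Creb3 FPKM per library, uric acid in red and untreated in blue. The Creb3 share is 24.9 to 27.1% with uric acid and 31.1 to 33.7% without, and the ratio is 0.165 to 0.192 with uric acid and at most 0.0336 without.

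Among genes known to be driven by ATF6, the chaperone Hspa5 and Creld2 fell with uric acid and Herpud1 rose. Log2 fold changes were negative for 16 of the 19 and positive for 3: Herpud1 (0.64), Sel1l (0.28) and Xbp1 (0.02), none of them a chaperone or folding enzyme. This list of 19, mostly chaperones and folding enzymes, was like those that follow drawn up with earlier results of these data known. Of its 19 tested members 1 was called higher and 2 lower, where 4.99% of all tested features were called higher and 2.99% lower. The median log2 fold change was -0.26, against 0.00127 over all tested features. At an unadjusted p under 0.05 in edgeR, 2 were higher and 13 lower, where 3199 of the 12460 features passed in either direction. Those 3199 were not split by direction, here or for the lists that follow. Hspa5, the chaperone BiP that also holds ATF6 in its inactive state, fell to 466 ± 40.6 FPKM with uric acid, against 644 ± 32.7 FPKM without (log2 fold change -0.47 ± 0.07, edgeR adjusted p = 0.00756). Creld2, a disulfide isomerase-like chaperone, had 36, 27.2 and 37.3 FPKM with uric acid and 46.5, 48.2 and 47.5 FPKM without (-0.50 ± 0.11, edgeR adjusted p = 0.0294). Herpud1, which serves degradation of misfolded proteins and is known in human cells as a CREB3 target as well, rose to 77.9, 83 and 65.6 FPKM with uric acid, against 49.9, 50 and 45.6 FPKM without, in 3 of 3 libraries (0.64 ± 0.09, edgeR adjusted p = 0.00489). Among the 16 members that missed the threshold, the chaperone gene Hsp90b1 had 578 ± 47.4 FPKM with uric acid and 681 ± 36.7 FPKM without (-0.24, edgeR adjusted p = 0.0695). The Hspa5 call was lost without untreated library 2 (0.0563). That of Creld2 was lost without untreated library 1 (0.0855), 2 (0.118) or 3 (0.083) and without uric acid library 1 (0.0874). It was also lost with replicate number as a block in edgeR (0.0619). The number lower was 1 without untreated library 1, 0 without untreated library 2, and 1 without uric acid library 1, and it was 10 with DESeq2, where 2 were higher. Over all features DESeq2 called 972 higher and 793 lower.

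Genes of transport from the endoplasmic reticulum to the Golgi, several of them known targets of CREB3 factors in other cells, included Sec16a and Sec24c, which fell. Of 14 tested, edgeR and DESeq2 called 0 higher, and edgeR called 2 lower, where 2.99% of all tested features were lower. The median log2 fold change was -0.22. At an unadjusted p under 0.05 in edgeR, 0 were higher and 7 lower, where 3199 of the 12460 features passed in either direction. Sec16a, which organises exit sites, had 15.4, 14 and 17.7 FPKM with uric acid and 23.6, 21.6 and 18.6 FPKM without (-0.44 ± 0.11, edgeR adjusted p = 0.0375). Sec24c, a cargo-selecting subunit of the COPII coat, had 28.1 ± 2.99 FPKM with uric acid and 35.4 ± 0.945 FPKM without (-0.33 ± 0.08, edgeR adjusted p = 0.04). The number lower was 0 without untreated library 1 or 2 or uric acid library 1 or 2, and 1 without untreated library 3. It was 0 with limma, with no filter on low values or with replicate number as a block, and 6 with DESeq2, which called 793 lower over all features. The Golgi GTPase gene Arf4, a CREB3 target in human cells, stood at 144 ± 4.8 FPKM with uric acid and 167 ± 2.3 FPKM without (-0.22, edgeR adjusted p = 0.0554), and passed with DESeq2 (0.0107), with library totals alone (0.0482) and with a limit of 5 FPKM (0.0474). Sec23a, a target of CREB3L2 in mouse cartilage, had 1.83 ± 0.325 FPKM with uric acid and 2.3 ± 0.231 FPKM without (-0.32, edgeR adjusted p = 0.238), and Sec24d had -0.08 (edgeR adjusted p = 0.588).

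**Figure D4:**
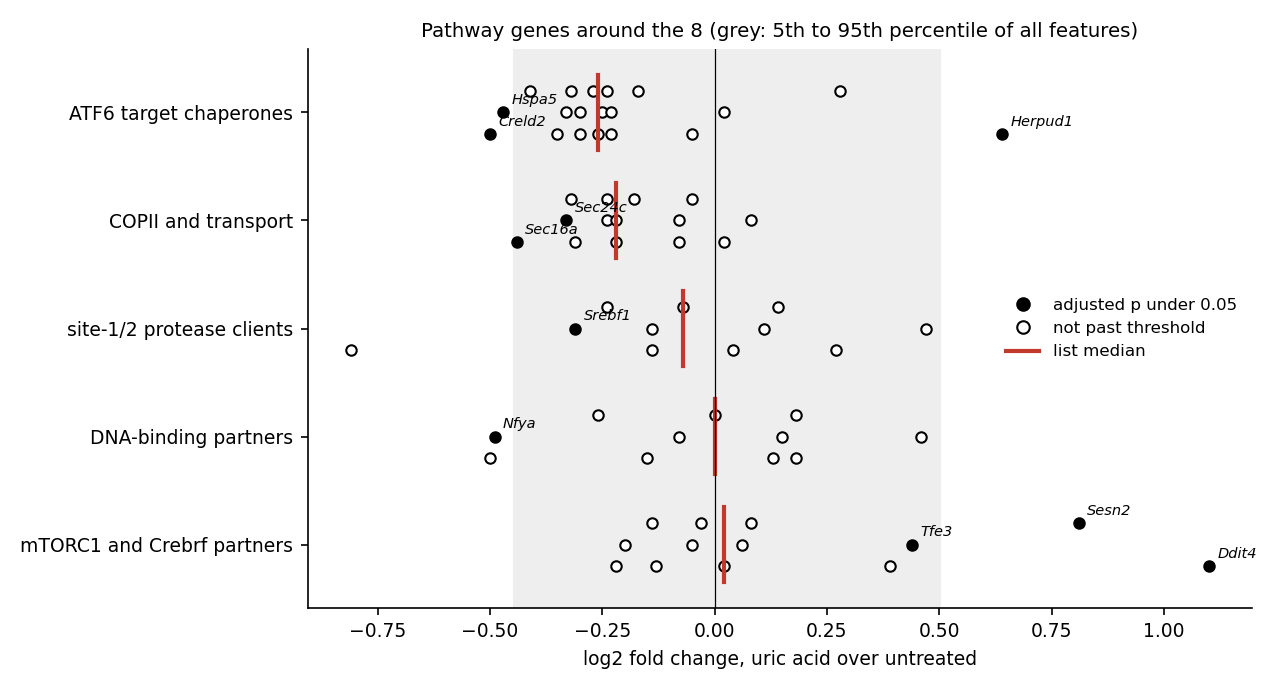
Log2 fold change of uric acid over untreated for the tested members of the 5 pathway lists, filled where the edgeR adjusted p is under 0.05, with red bars at list medians and grey from the 5th to the 95th percentile of all tested features. Medians are -0.26 for the list labelled ATF6 target chaperones and -0.22 for transport genes, with Ddit4, Sesn2 and Herpud1 to the right of the grey band and Pdia5, Creld2, Creb1, Nfya and Hspa5 to its left.

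Other clients of the 2 proteases and proteins that handle ATF6 showed 1 call, lower, among 11 tested genes, where 7.98% of all tested features were called, with a median log2 fold change of -0.07. None was called higher by edgeR. At an unadjusted p under 0.05 in edgeR, 1 was higher and 3 lower, where 3199 of the 12460 features passed in either direction. Pdia5, a disulfide isomerase linked to ATF6 activation and named here after its values were seen, had 2.71, 1.39 and 2.26 FPKM with uric acid and 4.12, 3.42 and 3.6 FPKM without (-0.81 ± 0.23, edgeR adjusted p = 0.065). Txndc12, also named after its values were seen, differed in the other direction. It had 42.2, 53.8 and 35.7 FPKM with uric acid and 30.5, 32.4 and 32.2 FPKM without (0.47 ± 0.13, edgeR adjusted p = 0.0647). Srebf1, a membrane-bound factor of lipid synthesis cut by the same proteases, had 38.5, 36 and 35.5 FPKM with uric acid and 44.7, 44.7 and 46.5 FPKM without (-0.31 ± 0.06, edgeR adjusted p = 0.0199). Rai1 overlaps it on the other strand. The Srebf1 call was lost without untreated library 1 (0.0573), 2 (0.0904) or 3 (0.0685) and without uric acid library 1 (0.0653). It was also lost with replicate number as a block in edgeR (0.0881). The cholesterol regulator Srebf2 (-0.07), its escort Scap (0.11), Nucb1 (0.04), which slows cleavage of ATF6, and Wfs1 (-0.24), which promotes breakdown of ATF6, had edgeR adjusted p-values of 0.777, 0.312, 0.737 and 0.166. Without uric acid library 3 another member was called higher, and with DESeq2 the calls were 1 higher and 2 lower.

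Among 11 DNA-binding and cofactor partners, the median log2 fold change was 0.00. At an unadjusted p under 0.05 in edgeR, 3 were higher and 1 lower, where 3199 of the 12460 features passed in either direction. By edgeR adjusted p, 1 was called lower and 0 higher, where 7.98% of all tested features were called. The call was Nfya, a subunit of the CCAAT-binding factor that acts with ATF6. It had 6.7, 6.44 and 7.78 FPKM with uric acid and 11.1, 9.28 and 9.08 FPKM without (-0.49 ± 0.11, edgeR adjusted p = 0.0285). The call was lost without untreated library 1 (0.101), 2 (0.0869) or 3 (0.0552) and without uric acid library 1 (0.115) or 2 (0.0523). It was also lost with replicate number as a block in edgeR (0.0791). Hcfc1, the host cell factor that binds CREB3, stood at -0.26 ± 0.20 (edgeR adjusted p = 0.438), and this value was -0.04 when uric acid library 2 was left out and -0.48 when library 3 was. Crebzf, a leucine zipper protein also known as Zhangfei, stood at -0.08 (edgeR adjusted p = 0.519). One member was called higher without uric acid library 3 and with DESeq2.

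The last list, of mTORC1 components and TORC1-linked partners of CREBRF, had a median log2 fold change of 0.02 over 13 tested members. At an unadjusted p under 0.05 in edgeR, 4 were higher and 2 lower, where 3199 of the 12460 features passed in either direction. By edgeR adjusted p, 3 were called higher and 0 lower, where 4.99% of all tested features were called higher. The 3 were Ddit4 and Sesn2, which restrain mTORC1, and Tfe3. The mTORC1 components themselves (Mtor, Rptor, Mlst8, Deptor and Akt1s1) were not called, Akt1s1 coming closest (0.39, edgeR adjusted p = 0.0668). Nor were Tsc1 (0.02, edgeR adjusted p = 0.96) and Tsc2 (-0.13, edgeR adjusted p = 0.315). Ddit4 rose to 43.5 ± 4.82 FPKM with uric acid, against 20.3 ± 2.58 FPKM without (1.10 ± 0.12, edgeR adjusted p = 0.00125), and Sesn2 to 86 ± 7.07 FPKM, against 49 ± 1.06 FPKM (0.81 ± 0.07, edgeR adjusted p = 0.000519). Tfe3, a MiT/TFE factor that mTORC1 keeps out of the nucleus, had 17.1, 17.1 and 17.2 FPKM with uric acid and 11.9, 14.2 and 11.7 FPKM without, so the groups did not overlap (0.44 ± 0.10, edgeR adjusted p = 0.0272). The Tfe3 call was lost without untreated library 1 (0.0979) or 3 (0.0832) and without uric acid library 1 (0.0991). It was also lost with replicate number as a block in edgeR (0.0769). Its relative Tfeb stood at -0.20 (edgeR adjusted p = 0.181), and Mitf was below the test limit. Crebl2, whose fly counterpart is the DNA-binding partner of REPTOR, had 2.33, 1.67 and 2.64 FPKM with uric acid and 2.57, 2.59 and 2.18 FPKM without (-0.14 ± 0.19, edgeR adjusted p = 0.683).

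The features most like Crebrf over the 6 libraries, by Pearson's r of log2(FPKM + 1) among 10935 with a settled symbol, were Net1 (0.9997), Usp6nl (0.9992), Zc3h6 (0.999), Josd1 (0.9987) and Rhbdd1 (0.9985). All 6 points of each come from the same libraries and fall into the 2 groups, so r mainly records a difference between groups with little spread within them. With uric acid library 2 left out, 1 of these 5 remained among the 5 highest, and with uric acid library 3 left out 2 did. An absolute r of at least 0.95 was found for 4.53% of the ranked features. Net1 had 139, 141 and 141 FPKM with uric acid and 70.9, 74.4 and 72.9 FPKM without. Zc3h6, a zinc finger gene, had 3.67, 3.6 and 3.62 FPKM with uric acid and 1.53, 1.66 and 1.61 FPKM without, the largest fold among the 5 at 2.27. Rhbdd1, a rhomboid protease, had a similar r with a fold of only 1.23 (3.74 ± 0.0317 FPKM with uric acid and 3.03 ± 0.0352 FPKM without). The lowest values of r were those of Bcar1 (-0.9987), a scaffold of focal adhesions, Adra2a (-0.9973), the adrenergic receptor that curbs insulin release, and Map3k11 (-0.9969). Adra2a had 19.3, 18.9 and 18.7 FPKM with uric acid and 36.5, 33.2 and 35.9 FPKM without. Among the other genes of the set r with Crebrf was -0.961 for Creb3, 0.83 for Mbtps2, 0.759 for Mbtps1, 0.537 for Atf6b, 0.49 for Creb3l1, -0.497 for Creb3l2 and -0.0549 for Atf6.

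**Figure D5:**
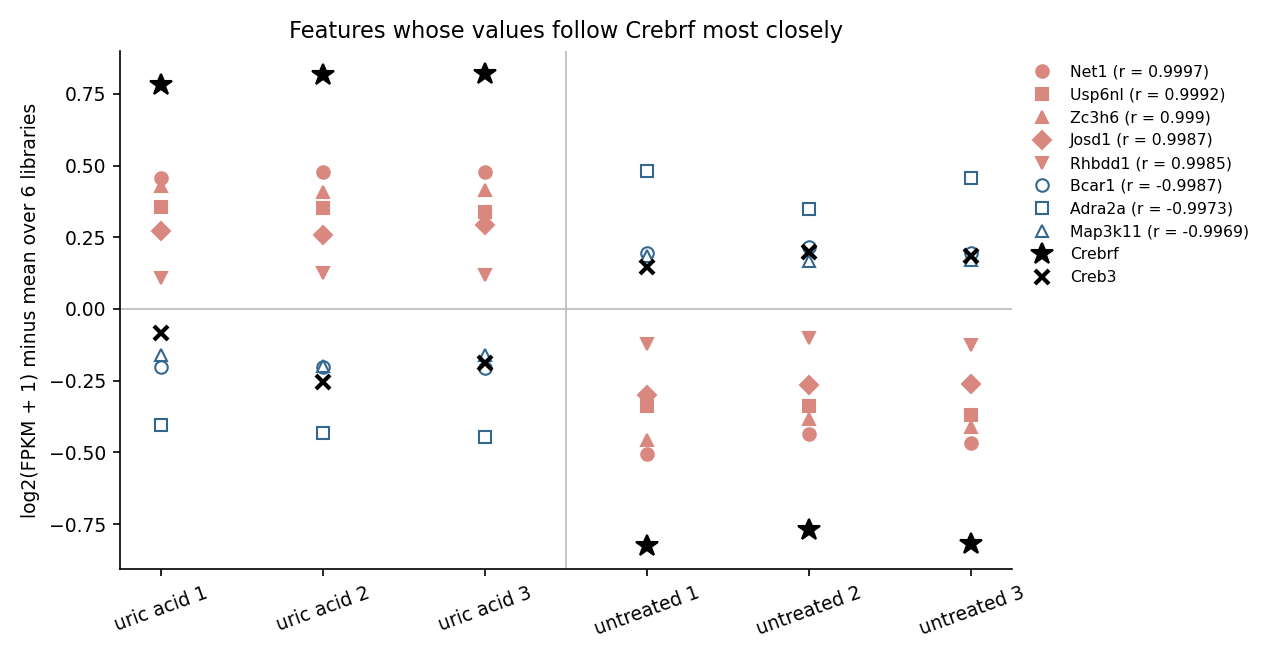
Values of Crebrf, Creb3 and the features with the 5 highest and 3 lowest r with Crebrf, as log2(FPKM + 1) minus the mean over the 6 libraries, for each library. The 5 features in red lie above 0 in the 3 uric acid libraries and below 0 in the 3 untreated libraries, as Crebrf does, and Creb3 with the 3 features in blue does the opposite.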

How the data were processed

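The deposited table gives, per the file headers, FPKM and counts per gene for each of 6 libraries. The FPKM values were scaled by the authors to transcript length and library size. The deposited counts are treated as estimated counts: they are whole numbers, and the ratio of count to FPKM was, after 1 scale factor per library, constant between libraries within 0.197% over 6768 features. Tools listed in the submitters' processing notes, with no roles, are StringTie 1.3.4d, HISAT2 2.0.4, edgeR, DESeq2 and cutadapt 1.9. Neither a genome build nor a counting strand is given in the sources used here. Libraries were oligo-dT selected and made with dUTP second strands, per the labels' protocols. All columns were matched to samples by title.

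Features with a mean of at least 1 FPKM (12460 of 19289) were compared in edgeR 4.0.16 (R 4.3.3; quasi-likelihood F test, TMM scaling, no covariate), two-sided, with Benjamini-Hochberg adjustment over all of them and a threshold of 0.05. Spread between libraries sets the precision (median SE of a log2 fold change 0.113). An exact permutation test of 3 against 3 cannot go below p = 0.1. The fit was tested on simulated data. Alternatives used DESeq2 1.42.0, limma 3.58.1 on log2(FPKM + 1) or log2(FPKM + 0.1), other scalings and filters, counts divided by 4 and rounded (what 1 read pair is worth in counts is unknown), the replicate block and each library left out. The genes and lists were chosen with earlier results of these data known. Named were the 8 genes, up to 3 called members of each list with the smallest p, and a set of partners. Also named were the 5 highest and 3 lowest r with Crebrf. Tfeb, Mitf, Pdia5, Txndc12, Creb1, Sel1l, Xbp1, Tsc1, Tsc2, the mTORC1 components, single beta-cell markers and the unadjusted counts were added after their values were seen. Of the list genes, Sar1a was not analysed here, and 1 gene was matched by an older symbol in RefSeq. Promoters come from RefSeq (GRCr8), which held 7 of the 8.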

Additional observations from a re-analysis of the deposited data

How the results depend on the processing

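The log2 fold change of Crebrf was 2.06 to 2.11 with any 1 library left out and 2.08 in the edgeR and DESeq2 alternatives that tested it, but 1.61 with limma on log2(FPKM + 1) and 2.02 on log2(FPKM + 0.1), where the pseudocount shrinks low values. With a limit of 5 FPKM it was not tested, which leaves 1 of the 8 genes called; the replicate block also leaves 1, with Creb3 lost, and leaving out 1 library leaves 1 to 2. Of the 118 values of the 8 genes under alternatives, 116 moved by less than the spread between libraries. Leaving out 1 of 3 libraries can hardly move a value by more than that spread, so the tally says little of those fits. The 994 features called (622 higher, 372 lower) became 1765 (972 and 793) with DESeq2, 322 (223 and 99) with the replicate block, and 231 to 1173 (165 to 707 and 66 to 466) with 1 library left out. The replicate numbers pair no cultures in the labels, and same-numbered libraries deviated from their group means with r = 0.0684, -0.0492 and -0.19, and not every library correlated best with its own number. The 10 calls in the pathway lists became 27 with DESeq2, 4 with the replicate block and 4 to 13 with 1 library left out. Values that were not called turned sign without uric acid library 2: with 1 library left out they ran from -0.29 to 0.02 for Crebl2, -0.18 to 0.07 for Srebf2, -0.00095 to 0.07 for Nucb1 and -0.12 to 0.09 for Atf6, which also turned without untreated library 1. Of the 5 features most like Crebrf, 0 were among the top 5 by Spearman's rank correlation, where 1581 features had a value of at least 0.714, and 1 to 4 with 1 library left out (chosen after seeing the data). Scaling moved the median of all features by at most 0.0059. Fewer samples leave fewer residual degrees of freedom; other causes were not tested.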
